A study of Mus musculus with 6 samples.

Results

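The genes described here are relatives in function of the enzyme that the knockout mice of this study lack: the paraoxonase lactonases Pon1, Pon2 and Pon3, and the enzymes of the oxidative pentose phosphate pathway H6pd, Pgls and Pgd. They were chosen by function, with earlier results of these data known. Each was taken as the probe set that the platform annotation gives to one of them alone. Of 7 genes listed, 6 had such a probe set, 1 each, out of 19550 genes with a probe set of their own. G6pdx, which encodes the cytosolic glucose-6-phosphate dehydrogenase, was not analysed here. All 6 genes lay above the filter on dim genes and were among the 14662 genes tested.

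The study measured liver RNA of male C57BL/6NCrSlc mice on 6 microarrays, 2 in each of 3 groups. The groups were SMP30/GNL knockouts without ascorbic acid (AA, vitamin C), called AA-deficient, SMP30/GNL knockouts given AA in their drinking water, called AA-supplemented, and wild-type mice. Per the labels, every group ate a diet without AA, and the AA in the water was stabilised with EDTA. The labels do not say whether the other groups received EDTA, and they give no age and no pooling of animals. The labels leave unsaid whether replicate arrays are different animals, so every p-value rests on a spread that may be technical. SMP30 (senescence marker protein 30, or regucalcin, gene Rgn) is the gluconolactonase of AA synthesis in mice. Values are in the deposited log units, read as log10, and folds hold on that reading.

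A lactonase opens the ring of a lactone, an ester closed on itself. SMP30 can act in this way on sugar-acid lactones, but in AA synthesis its step runs in reverse and closes the ring of gulonolactone. The pentose phosphate pathway holds a ring-opening step. Glucose 6-phosphate is oxidised to 6-phosphogluconolactone, the lactonase PGLS hydrolyses it to 6-phosphogluconate, and PGD oxidises that product to ribulose 5-phosphate. Both oxidations make NADPH, which the liver spends on fatty acid and cholesterol synthesis and on the reduction of glutathione. H6PD carries out the first steps inside the endoplasmic reticulum. The paraoxonases are lactonases of another family. PON1 and PON3 are made by the liver, PON1 travels in blood on high-density lipoprotein (HDL), and PON2 stays inside cells.

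Rgn checked the labels. It was at 0.229 and 0.297 on the AA-deficient arrays, 0.339 and 0.141 on the AA-supplemented arrays, and 2.070 and 1.996 on the wild-type arrays. Both knockout groups thus lay far below wild type. Arrays of one group correlated at 0.965 to 0.975 over all probe sets, and arrays of different groups at 0.945 to 0.974. The liver label was checked against its markers, and the hepatocyte genes Alb, Ttr, Apob, Cyp2e1, Cps1, Tat, Hnf4a and Ahsg were all above the filter. In whole liver, fewer cells of a type and less RNA per cell cannot be told apart.

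None of the 6 genes passed the test in any of the 3 comparisons (limma, adjusted p under 0.05 over all genes tested). Between AA-deficient and AA-supplemented knockouts 0 of 6 passed, where 0.205% of all genes did, and the adjusted p ran between 0.554 and 0.942. For AA-deficient knockouts against wild type 0 of 6 passed, against 4.63% of all genes, with adjusted p between 0.112 and 0.973. For AA-supplemented knockouts against wild type 0 of 6 passed, against 0.00682% of all genes, which was Rgn alone, with adjusted p between 0.608 and 0.987. At an unadjusted p under 0.05, 0 of 6 genes passed in the first comparison (9.92% of all genes, 5.38% higher), 1 in the second (20.4% of all genes, 11.8% higher) and 0 in the third (10.6% of all genes, 6.78% higher). That 1 gene was Pgd, higher in AA-deficient knockouts.

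**Figure D1:**
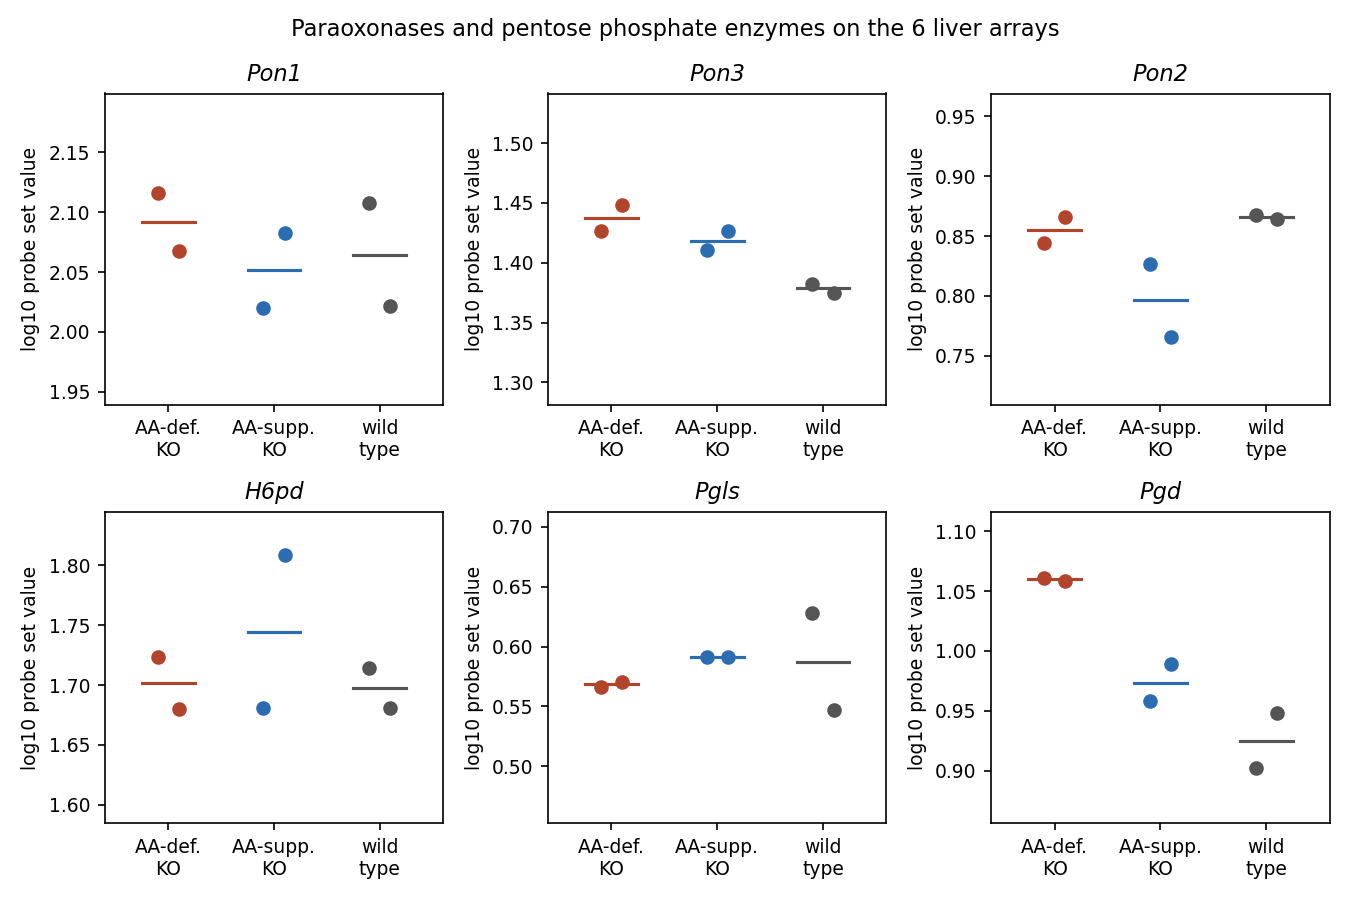
Value of each of the 6 genes on each array (points, log10 probe set value) with the group mean (line), for AA-deficient knockouts, AA-supplemented knockouts and wild type, 2 arrays each. All panels span the same height, and the group means are farthest apart for Pgd, at 1.060 in AA-deficient knockouts and 0.925 in wild type.

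Pgd (Entrez 110208, probe set 10518570) encodes 6-phosphogluconate dehydrogenase, the last oxidative step of the pathway and the second source of its NADPH. Its values were 1.061 and 1.058 on the AA-deficient arrays, 0.958 and 0.989 on the AA-supplemented arrays, and 0.902 and 0.948 on the wild-type arrays. No group overlapped another, and the AA-deficient knockouts were highest and wild type lowest. Of all genes tested, 5.73% showed 3 separate groups in this order. The AA-deficient knockouts differed from wild type by 0.13 (SE 0.041, 1.36-fold, with a 95% interval of 1.10 to 1.70), at an unadjusted p of 0.0113 in limma and an adjusted p of 0.112. By p it ranked 1472 of 14662 genes in this comparison, and the largest unadjusted p that passed was 0.00231. Between the knockouts the difference was 0.086 (SE 0.041, 1.22-fold, 95% interval 0.981 to 1.52, adjusted p = 0.554). The AA-supplemented knockouts differed from wild type by 0.048 (SE 0.041, 1.12-fold, 95% interval 0.899 to 1.39, adjusted p = 0.733).

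The call on Pgd turned on how the spread was modelled. When limma's prior spread was allowed to follow the mean value of a gene, the same difference from wild type passed, with an adjusted p of 0.0363, and with the robust option added it was 0.0376. Those fits called 5.52% and 5.69% of all genes higher in AA-deficient knockouts, against 3.08% without the trend. Over 16 alternatives the adjusted p ran between 0.0363 and 0.438, and the difference between 0.11 and 0.16. Summed levels of cell type markers were set beside these values. The summed level of 8 hepatocyte markers, on the linear scale, was 1037 to 1050 in AA-deficient knockouts. It was 946 to 1313 in AA-supplemented knockouts and 886 to 1002 in wild type. Both AA-deficient arrays were thus above both wild-type arrays, with 7 of the 8 marker differences above 0 and 1 below. The AA-supplemented arrays spanned the range of the AA-deficient ones. The summed level of 6 neutrophil markers was 7.79 on both AA-deficient arrays, 9.41 to 11.2 in AA-supplemented knockouts and 9.22 to 10.4 in wild type, with 3 of the 6 below the filter and the last 2 groups overlapping. The 2 erythroid markers with a value summed to 27.0 to 30.4, 31.7 to 33.4 and 35.3 to 37.7 in the same order of groups, a sum carried by Alas2, since Slc4a1 lay below the filter. Of all marker genes tested 1 passed, Stab2, a receptor of liver endothelium, higher in AA-deficient knockouts than wild type. The 8 endothelial markers had 6 differences above 0 and 2 below in that comparison, and their summed level, 141 to 147 in AA-deficient knockouts and 136 to 144 in wild type, overlapped. In AA-supplemented knockouts that sum was 130 to 133, below both other groups. The part of these cell types in the values of Pgd was not tested.

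Sequence upstream of Pgd and of Pon3 is shown because these were the only members whose 3 groups separated in the same order. Each run gives 250 bases before the RefSeq start of transcription and 50 after it (GRCm38.p6), 5′ to 3′ on the strand of the gene, with matches to the motifs searched in capitals. For Pgd, which has 2 starts in the table, the upstream one is shown, at chr4:149166656-149166955 on the minus strand. Pon3 lies at chr6:5256184-5256483 on the minus strand.
Pgd: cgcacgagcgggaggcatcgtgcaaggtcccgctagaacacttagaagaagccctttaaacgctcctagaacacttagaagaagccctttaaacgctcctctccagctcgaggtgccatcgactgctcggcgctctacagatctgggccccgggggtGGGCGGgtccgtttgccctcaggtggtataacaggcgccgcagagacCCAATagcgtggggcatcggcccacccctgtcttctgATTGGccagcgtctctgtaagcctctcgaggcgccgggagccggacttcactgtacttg
Pon3: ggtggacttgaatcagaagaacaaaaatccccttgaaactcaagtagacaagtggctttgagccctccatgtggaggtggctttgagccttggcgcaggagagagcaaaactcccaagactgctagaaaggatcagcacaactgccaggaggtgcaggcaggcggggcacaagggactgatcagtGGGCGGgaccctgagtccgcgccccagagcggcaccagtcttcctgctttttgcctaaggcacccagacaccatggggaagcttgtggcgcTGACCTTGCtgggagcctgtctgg

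Both strands were searched for 5 motifs: the GC box GGGCGG bound by Sp1 family factors, the CCAAT box CCAAT bound by NF-Y, the antioxidant response element TGACNNNGC bound by Nrf2, the E-box CACGTG, and TCACNCCAC, a form of the sterol response element bound by SREBP proteins. The Pgd run holds 1 GC box and 2 CCAAT boxes, and the Pon3 run 1 GC box and 1 match to the antioxidant response element, which lies after the start. No motifs overlapped in these runs. Of 32851 such promoters in RefSeq, 35.7% hold a GC box, 37.4% a CCAAT box, 12.4% the antioxidant response element, 7.15% the E-box and 1.24% the sterol response element. All 6 genes had an entry. Over them a GC box was present in 4, a CCAAT box in 3 and the antioxidant response element in 3, while the E-box and the sterol response element were present in 0. A gene was counted if any of its starts held a match, whereas the RefSeq shares are per promoter. The antioxidant response element matches, in Pon2, Pon3 and Pgd, all lay after the start. That of Pgd was at its other start, which is not shown. The letters say only what these windows hold.

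The other steps of the pathway that were measured lay closer together. Pgls (Entrez 66171, probe set 10572663) encodes the 6-phosphogluconolactonase, which like SMP30 can open the ring of a sugar-acid lactone. It was at 0.567 and 0.571 on the AA-deficient arrays, 0.591 and 0.591 on the AA-supplemented arrays, and 0.628 and 0.547 on the wild-type arrays. The wild-type arrays lay on either side of both knockout groups. Its difference was -0.023 between the knockouts (SE 0.044, 95% interval -0.12 to 0.078, adjusted p = 0.935). Against wild type it was -0.019 in AA-deficient knockouts (SE 0.044, adjusted p = 0.862) and 0.0038 in AA-supplemented knockouts (SE 0.044, adjusted p = 0.987). The 95% intervals of these differences, on the fold scale, reach 1.33-fold lower between the knockouts, 1.32-fold lower in AA-deficient knockouts against wild type, and 1.27-fold higher in AA-supplemented knockouts against wild type.

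H6pd (Entrez 100198, probe set 10518743), the hexose-6-phosphate dehydrogenase of the endoplasmic reticulum, was at 1.724 and 1.680 on the AA-deficient arrays, 1.681 and 1.809 on the AA-supplemented arrays, and 1.714 and 1.681 on the wild-type arrays. AA-supplemented array 2 was higher than the other 5 arrays, and the groups overlapped in every comparison. This array also had the highest median of all probe sets, 0.392, where the lowest array was at 0.350. With each array centred on its median, H6pd was at -0.041 between the knockouts and 0.034 in AA-supplemented knockouts against wild type. H6pd differed by -0.043 between the knockouts (SE 0.052, adjusted p = 0.882), and without AA-supplemented array 2 by 0.021 (adjusted p = 0.923). In AA-deficient knockouts it was at 0.0047 against wild type (SE 0.052, adjusted p = 0.973). In AA-supplemented knockouts it was at 0.047 against wild type (SE 0.052, adjusted p = 0.807), and at -0.017 (adjusted p = 0.923) without the same array.

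The paraoxonase genes are neighbours on chromosome 6, in the order Pon1, Pon3 and Pon2, with 0 other RefSeq genes between them. Pon1 (Entrez 18979, probe set 10542983), the HDL-bound paraoxonase, was at 2.116 and 2.068 on the AA-deficient arrays, 2.020 and 2.082 on the AA-supplemented arrays, and 2.108 and 2.021 on the wild-type arrays. The groups overlapped in all comparisons. Its difference was 0.040 between the knockouts (SE 0.048, adjusted p = 0.881), 0.027 in AA-deficient knockouts against wild type (adjusted p = 0.816) and -0.013 in AA-supplemented knockouts against wild type (adjusted p = 0.953). On the fold scale the 95% intervals ran from 0.848 to 1.42 between the knockouts, and from 0.823 to 1.38 and 0.750 to 1.26 in the comparisons with wild type.

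Pon3 (Entrez 269823, probe set 10542993), another paraoxonase made by the liver, was at 1.427 and 1.448 on the AA-deficient arrays. It was at 1.411 and 1.426 on the AA-supplemented arrays, and 1.383 and 1.374 on the wild-type arrays. All 4 knockout arrays were above both wild-type arrays, and the lower AA-deficient array stood just above the higher AA-supplemented one. Against wild type the difference was 0.059 in AA-deficient knockouts (SE 0.039, 1.15-fold, 95% interval 0.930 to 1.41, adjusted p = 0.457) and 0.040 in AA-supplemented knockouts (SE 0.039, 1.10-fold, 95% interval 0.890 to 1.35, adjusted p = 0.777). Between the knockouts it was 0.019 (SE 0.039, 1.04-fold, adjusted p = 0.942).

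Pon2 (Entrez 330260, probe set 10543004), the paraoxonase kept inside cells, was at 0.844 and 0.866 on the AA-deficient arrays, 0.827 and 0.766 on the AA-supplemented arrays, and 0.867 and 0.864 on the wild-type arrays. Both AA-supplemented arrays were below the other 4, and the AA-deficient arrays overlapped wild type. The AA-supplemented knockouts differed from wild type by -0.069 (SE 0.042, 1.17-fold lower, adjusted p = 0.608). The AA-deficient knockouts were at 0.059 against the AA-supplemented ones (SE 0.042, 1.15-fold, adjusted p = 0.751), and at -0.010 against wild type (SE 0.042, 95% interval -0.11 to 0.087, adjusted p = 0.928).

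Groups of 2 arrays often fail to overlap, so counts of separate groups are read beside the share over all genes. Between the knockouts the groups did not overlap for 4 of 6 genes, Pgd, Pon2 and Pon3 higher and Pgls lower in AA-deficient knockouts, against 37.3% of all genes tested (19.8% higher and 17.5% lower). In AA-deficient knockouts against wild type they did not overlap for 2 of 6, Pgd and Pon3, both higher, against 54.5% of all genes (27.6% higher and 26.9% lower). In AA-supplemented knockouts against wild type they did not overlap for 3 of 6, Pgd and Pon3 higher and Pon2 lower, against 38.6% (19.8% higher and 18.8% lower). The counts moved with the scaling of the arrays. Between the knockouts they were 2 of 6 with each array centred on its median (33.7% of all genes), 5 after quantile normalisation (41.2%) and 5 after cyclic loess (41.3%). Under the same scalings, AA-deficient knockouts against wild type gave 2 (54.8%), 4 (56.9%) and 2 (56.3%). The AA-supplemented knockouts against wild type gave 2 (36.9%), 3 (43.5%) and 4 (43.1%). After median centring Pon1 separated between the knockouts while Pon2, Pon3 and Pgls overlapped, and Pgd overlapped between AA-supplemented knockouts and wild type. The median difference of the 6 genes was 0.030, 0.016 and 0.022 in the 3 comparisons, beside 3.1e-05, -0.0034 and -0.0017 over all genes. These comparisons share arrays, so their medians are not independent.

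**Figure D2:**
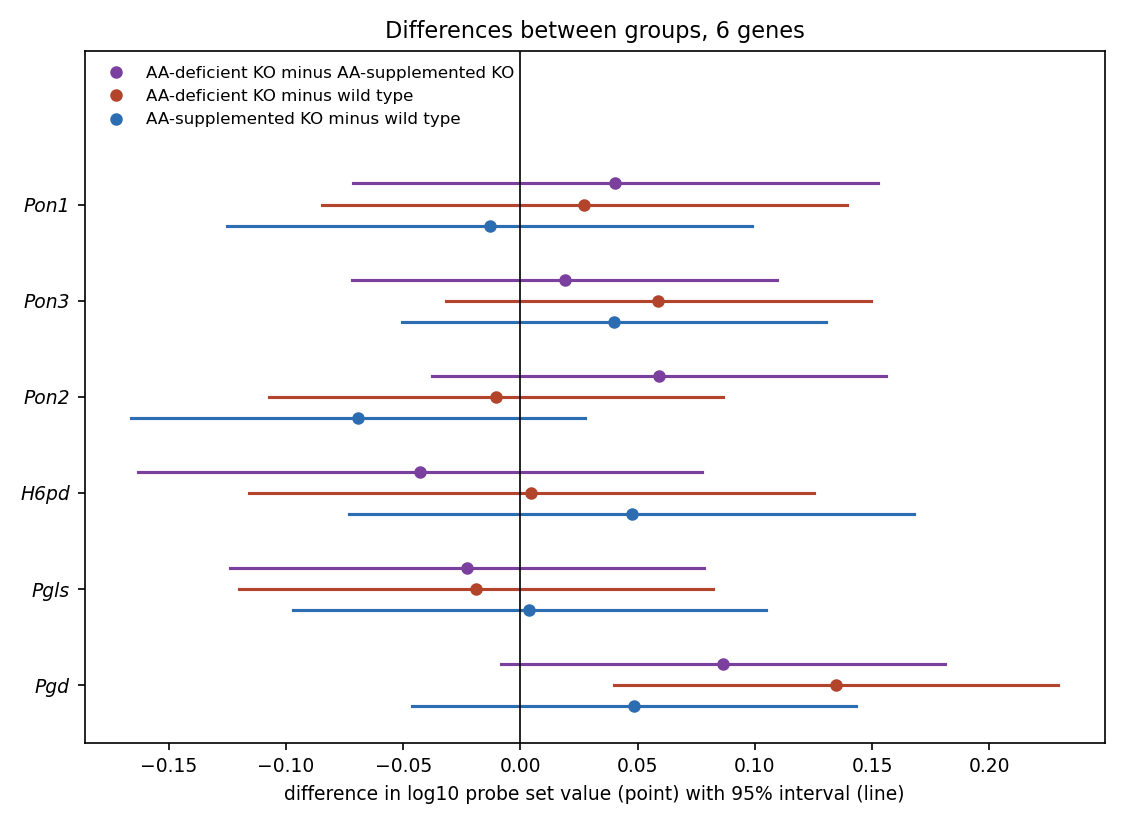
Difference between groups (points, log10 value) with its 95% interval from limma (lines) for the 6 genes in the 3 comparisons. The interval excludes 0 for Pgd in AA-deficient knockouts against wild type alone, at an unadjusted p of 0.0113 (adjusted p = 0.112).

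Around the oxidative steps, genes of the non-oxidative branch, which interconvert pentose and hexose phosphates, did not pass either. Of 8 tested, 0 passed in each comparison, and the median difference was 0.041 between the knockouts, -0.025 in AA-deficient knockouts against wild type and -0.064 in AA-supplemented knockouts against wild type. Transketolase, Tkt, the thiamine-dependent enzyme of this branch, was at 1.144 and 1.088 on the AA-deficient arrays, 0.982 and 0.970 on the AA-supplemented arrays, and 0.977 and 0.983 on the wild-type arrays. Both AA-deficient arrays were above the other 4, which lay close together. Tkt differed by 0.14 between the knockouts (SE 0.041, 1.38-fold, adjusted p = 0.284) and by 0.14 in AA-deficient knockouts against wild type (1.37-fold, adjusted p = 0.112). The difference from wild type passed in the fits with a trend (adjusted p = 0.0344, and 0.0338 with the robust option). Prps1, which makes phosphoribosyl pyrophosphate from ribose 5-phosphate, had the smallest p of the list in AA-supplemented knockouts against wild type, at -0.075 (SE 0.045, adjusted p = 0.602).

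The list of other suppliers of NADPH also holds the kinases Nadk and Nadk2, which make NADP rather than NADPH. In AA-deficient knockouts against wild type 0 of its 8 genes passed, with 7 differences above 0 and a median of 0.13. The 1 below 0 was Nnt, at 0.982 and 1.324 on the AA-deficient arrays and 1.423 and 1.388 on the wild-type arrays. Between the knockouts 6 of 8 differences were above 0 (median 0.054), and in AA-supplemented knockouts against wild type 6 of 8 (median 0.048), with 0 passing in each. Me1, the cytosolic malic enzyme, was at 1.660 and 1.434 on the AA-deficient arrays, 1.262 and 1.191 on the AA-supplemented arrays, and 1.325 and 1.159 on the wild-type arrays. Both AA-deficient arrays were above the other 4. It differed by 0.32 between the knockouts (SE 0.083, 2.09-fold, adjusted p = 0.222) and by 0.31 in AA-deficient knockouts against wild type (SE 0.083, 2.02-fold, adjusted p = 0.0810). With a trend in the prior spread the comparison with wild type passed (adjusted p = 0.0261), but not with the robust option added (adjusted p = 0.101). Aldh1l1, a folate enzyme that makes NADPH from 10-formyltetrahydrofolate, was at 0.11 in AA-supplemented knockouts against wild type (SE 0.044, adjusted p = 0.456).

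The lipogenic list holds enzymes of fatty acid synthesis, among them the NADPH-consuming fatty acid synthase, and their regulators. Like the other lists, it was chosen with earlier results of these data known. In AA-deficient knockouts all 10 differences from wild type were above 0 (median 0.18, 1.53-fold), and 4 of 10 rose, where 3.08% of all genes did: Fasn, fatty acid synthase, 2.79-fold (adjusted p = 0.00597), Srebf1, the SREBP-1 transcription factor, 2.91-fold (adjusted p = 0.0185), Acaca, acetyl-CoA carboxylase, 1.82-fold (adjusted p = 0.0203), and Mlxipl, the carbohydrate response factor ChREBP, by 0.30 on the log10 scale (adjusted p = 0.0224). Leaving out either wild-type array ended the call on each of the 4, with adjusted p of 0.0965 and 0.0639 for Fasn, and 1 gene of the whole table passed in each of those fits. Between the knockouts 8 of 10 were higher (median 0.10), and in AA-supplemented knockouts against wild type 7 of 10 (median 0.058), with 0 passing in each. Srebf1 had the smallest p between the knockouts (0.40, SE 0.071, adjusted p = 0.104) and Acaca in AA-supplemented knockouts against wild type (0.23, SE 0.041, adjusted p = 0.186). Both passed in the limma fits with a trend (adjusted p = 0.0184 and 0.0309, and 0.0218 and 0.0222 with the robust option). The fit with a trend alone called 154 and 94 of all genes in these comparisons, against 30 and 1 without it. The 1.36-fold difference of Pgd in AA-deficient knockouts against wild type was smaller than those of the 4 genes that rose. This follows from choosing genes that passed: the smallest difference that passed in that comparison was 0.175, against 0.13 for Pgd.

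The Nrf2 target genes are a list of antioxidant genes, some of whose enzymes draw on NADPH. In AA-deficient knockouts against wild type 1 of 8 passed, and 0 passed in the other comparisons. Srxn1, sulfiredoxin, which repairs oxidised peroxiredoxins, was at 0.818 and 0.888 on the AA-deficient arrays, 0.820 and 0.962 on the AA-supplemented arrays, and 1.103 and 1.257 on the wild-type arrays. It fell 2.12-fold in AA-deficient knockouts against wild type (adjusted p = 0.0414), where 1.55% of all genes passed as lower, a call lost without any 1 of the 4 arrays compared (adjusted p 0.113 to 0.215). The list's median there was 0.072, with 6 of 8 genes higher, and it was 0.049 between the knockouts and 0.030 in AA-supplemented knockouts against wild type. Hmox1, heme oxygenase, had the smallest p of the list between the knockouts (-0.21, SE 0.041, adjusted p = 0.119) and in AA-supplemented knockouts against wild type (0.26, SE 0.041, adjusted p = 0.135). Both differences passed with a trend, at an adjusted p of 0.0283 between the knockouts and 0.027 against wild type.

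**Figure D3:**
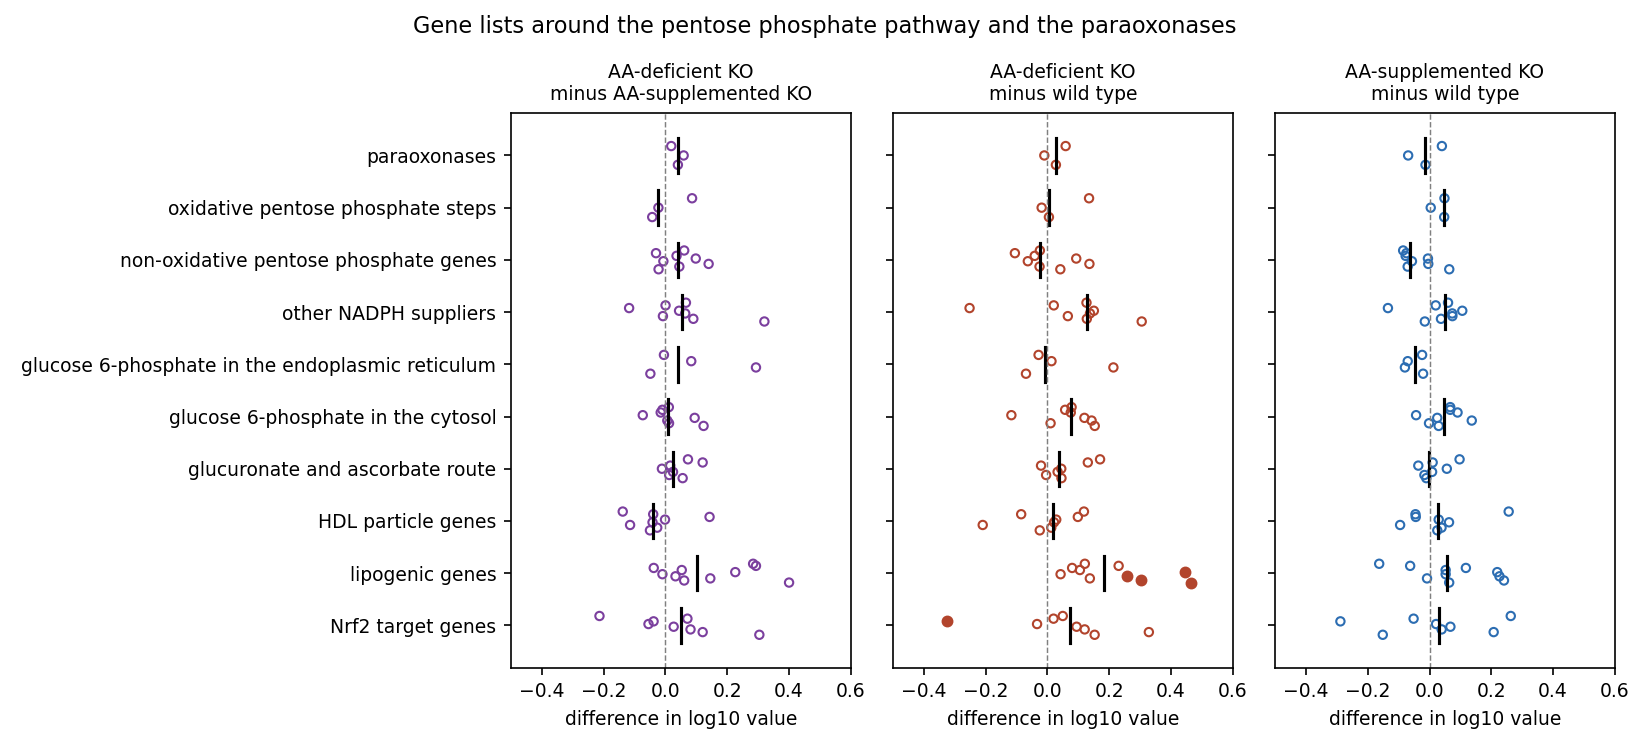
Difference of each tested gene (circles, log10 value, filled where the adjusted p was under 0.05) by gene list, with the list's median (bars), in the 3 comparisons. Rgn, at -1.77 and -1.79 against wild type, is counted in the median of its list but not drawn, and 4 lipogenic genes and Srxn1 are the only filled circles.

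Glucose 6-phosphate, the substrate of the first step, is used both in the endoplasmic reticulum and in the cytosol. Among 4 genes of the endoplasmic reticulum, where H6pd works, 0 passed in each comparison, and the medians were 0.039, -0.0080 and -0.047. G6pc, the catalytic subunit of glucose-6-phosphatase, had the smallest p between the knockouts (0.29, SE 0.10, adjusted p = 0.378) and in AA-deficient knockouts against wild type (0.21, SE 0.10, adjusted p = 0.296). G6pc3, another catalytic subunit, was at -0.071 in AA-supplemented knockouts against wild type (SE 0.041, adjusted p = 0.599). Among 8 tested genes of cytosolic glucose 6-phosphate, 0 passed in each comparison, with medians of 0.0086, 0.077 and 0.048. Slc2a2, the glucose transporter of hepatocytes, was at 0.12 between the knockouts (SE 0.050, adjusted p = 0.456). Hk3, a hexokinase, had a mean of 0.275 on the AA-deficient arrays, 0.269 on the AA-supplemented arrays and 0.132 on the wild-type arrays. Both wild-type arrays lay below the filter on dim genes (0.185), which Hk3 passed through the knockout arrays, and neither comparison with wild type passed (adjusted p = 0.112 without AA and 0.351 with it).

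HDL particle genes, the carriers of PON1, had 0 of 8 passing in each comparison. Their medians were -0.041 between the knockouts, 0.017 in AA-deficient knockouts against wild type and 0.027 in AA-supplemented knockouts against wild type. Apom, the apolipoprotein M of HDL, was at 1.091 and 1.127 on the AA-deficient arrays, 1.241 and 1.206 on the AA-supplemented arrays, and 1.369 and 1.268 on the wild-type arrays. The groups did not overlap, with the AA-deficient arrays lowest. Of all genes tested, 17.5% were lower without overlap between the knockouts. Against wild type these shares were 26.9% in AA-deficient and 18.8% in AA-supplemented knockouts. Against wild type Apom was at -0.21 in AA-deficient knockouts (SE 0.048, 1.62-fold lower, adjusted p = 0.0510), just outside the threshold. It passed after each of the 3 other scalings (adjusted p 0.0383 to 0.0478), with a stricter filter, with a trend and when the AA-supplemented arrays were left out, but not without the filter (0.104), with the replicate block (0.103) or without any 1 of the 4 arrays compared (0.121 to 0.296). Pltp, the phospholipid transfer protein, was at 0.14 between the knockouts (SE 0.047, adjusted p = 0.344), and Abca1, the exporter that lipidates nascent HDL, at 0.26 in AA-supplemented knockouts against wild type (SE 0.060, adjusted p = 0.220).

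On the glucuronate and ascorbate route itself, Rgn was the 1 gene of 8 tested that passed, lower in AA-deficient and in AA-supplemented knockouts than in wild type (adjusted p = 8.98e-05 and 8.11e-05). The fitted differences were -1.77 and -1.79, but the knockout values lay around the filter of 0.185, near the dim end of the arrays, so these sizes are set against a level near background. Between the knockouts 0 of 8 passed, and the medians of the list were 0.024 between the knockouts, 0.039 in AA-deficient knockouts against wild type and -0.0012 in AA-supplemented knockouts against wild type. Gulo, gulonolactone oxidase, the enzyme after SMP30, was at 0.045 in AA-deficient knockouts (adjusted p = 0.727) and 0.056 with AA (adjusted p = 0.786), both against wild type. Dcxr, the xylulose reductase through which glucuronate carbon can reach the pentose phosphates, was at 0.12 between the knockouts (SE 0.040, 1.32-fold, adjusted p = 0.347).

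The genes nearest to Pgd over the 6 arrays, by the root mean square difference of values centred on each gene's own mean, were Tert at 0.0083, Nono at 0.010 and Rcc2 at 0.011. Tert encodes the reverse transcriptase of telomerase, Nono a nuclear RNA-binding protein of paraspeckles, and Rcc2 a regulator of chromosome condensation. Each had its highest values on the AA-deficient arrays and its lowest on the wild-type arrays, an order that choosing genes near Pgd favours. Of all genes tested, 5.73% showed 3 separate groups in this order. Tert was dim, with both wild-type arrays (0.118 and 0.172) and AA-supplemented array 1 (0.182) below the filter value of 0.185. None of the 3 passed in AA-deficient knockouts against wild type (adjusted p = 0.0967, 0.114 and 0.133), where Nono differed by 0.13 and Rcc2 by 0.12. Likeness over 6 arrays is a description of these libraries.

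**Figure D4:**
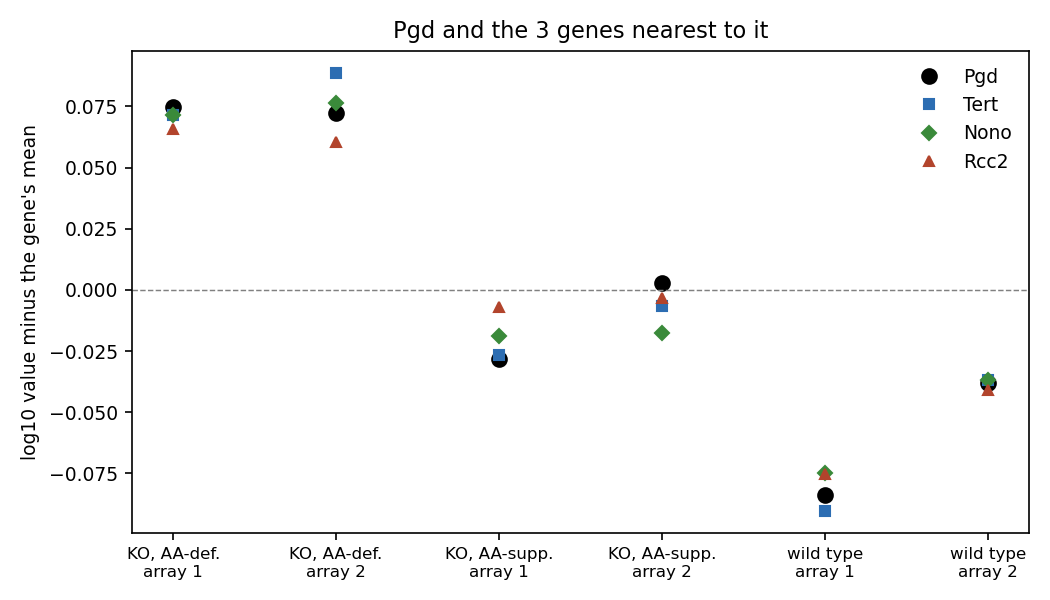
Values of Pgd, Tert, Nono and Rcc2 on the 6 arrays, each minus the gene's mean over the arrays (log10 units). All 4 genes are highest on the AA-deficient arrays and lowest on the wild-type arrays, an order that choosing genes near Pgd favours.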

How the data were processed

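The deposited table holds 1 value per probe set and array for 6 Affymetrix arrays of liver total RNA, which the labels' protocols say were made with Affymetrix's WT terminal labelling kit. The authors' deposited values are taken as log10: they ran from -0.58 to 2.51, a span of 1213-fold as log10 and 8.48-fold as log2. The sources used here do not give the background correction, summarisation, normalisation or log base. Of 34760 probe sets, 3995 held no value. Values near background have no detection call to mark them, and the number of arrays limits the precision.

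Genes took their probe set of 1 symbol with the highest mean, through the platform annotation. Genes at or above the 25th percentile of the mean (0.185) entered limma 3.58.1 (R 4.3.3) on the deposited log values, all 6 arrays in 1 fit, with 3 residual degrees of freedom and 4.89 prior ones. Two-sided p-values received the Benjamini-Hochberg adjustment over 14662 genes (threshold 0.05). The fit was tested on simulated data drawn from its own prior spread without a trend. That test cannot say whether a trend should be used. Alternatives changed the scaling, filter, prior spread, probe sets, arrays and replicate block. The members and lists were chosen with earlier results of these data known. By a fixed rule, all members, Rgn and Gulo were named, with genes past the threshold or of smallest p in each list, and the 3 genes nearest to the member of smallest p. Promoters and gene order are those of RefSeq (GRCm38.p6).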

Additional observations from a re-analysis of the deposited data

How the results depend on the processing

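Under 16 alternatives in each comparison, the count of members past the threshold stayed at 0 in 46 of 48 fits. It was 1, Pgd, for AA-deficient knockouts against wild type with a trend in the prior spread, and 1 with the trend and the robust option. Of 288 member differences, 271 kept direction and side of the threshold, 2 passed (Pgd, as above) and 15 changed sign, none of them past the threshold on either side. H6pd in AA-deficient knockouts against wild type was at -0.0074 after median centring, -0.017 after quantile normalisation and -0.0088 after cyclic loess. Pgls in AA-supplemented knockouts against wild type was at -0.0099 after median centring and -0.0085 after quantile normalisation. With each array left out in turn, H6pd ran from -0.11 to 0.021 between the knockouts, from -0.017 to 0.026 in AA-deficient and from -0.017 to 0.11 in AA-supplemented knockouts against wild type. Against wild type, Pgls ran from -0.060 to 0.022 in AA-deficient and from -0.037 to 0.045 in AA-supplemented knockouts. Pon1 ran from -0.016 to 0.070 and from -0.056 to 0.030 in the same comparisons, and Pon2 from -0.021 to 0.00065 in AA-deficient knockouts. The cause of these changes was not tested. Of the list genes, only the 27 differences that had passed or had the smallest p of their list were recomputed, and 0 of these 430 fits changed sign, a stability that the choice favours. The calls on Acaca and Mlxipl were lost without either AA-deficient array and without the filter on dim genes (adjusted p = 0.0522 and 0.0561), that on Srxn1 without the filter (0.0884), and that on Srebf1 without AA-deficient array 2 (0.0834). The count of all genes past the threshold ran from 0 to 177 between the knockouts, against 30 as reported, from 1 to 1312 in AA-deficient knockouts against wild type, against 679, and from 1 to 116 in AA-supplemented knockouts against wild type, against 1. Same-numbered arrays of 2 groups had deviations correlated at -0.22, 0.22 and -0.19. Each value rests on 1 replicate difference per group, so it cannot tell whether the numbers pair the arrays. The labels do not say what a shared number means. With the replicate number as a block, 0 members passed in each comparison, all-gene counts were 4, 163 and 3, the calls on Srebf1, Acaca and Mlxipl were lost (adjusted p 0.0530 to 0.0591), and Pgd had an adjusted p of 0.200 at its difference of 0.13 from wild type, which a block cannot change in this balanced design. Only 2 arrays per group limit what can be resolved.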
